A study of Homo sapiens with 3 samples.

Results

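The cells described here are the p21-high cells of BxPC-3, a long-used cell line from a human ductal adenocarcinoma of the pancreas. They were chosen by the transcript level of CDKN1A, the gene of the cyclin-dependent kinase inhibitor p21. Barcodes with at least 6500 unique molecular identifiers (UMIs), at least 500 genes and at most 20% mitochondrially encoded UMIs were pooled from 3 droplet libraries, which gave 5640 cells. A score was taken as the CDKN1A UMIs per 10000 UMIs of a cell, and the top 5% of pooled cells by this score, 282 cells, are the p21-high cells. The remaining 5358 cells are called other cells.

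The libraries hold 3 populations of the line. Cells stably expressing EGFP were mixed with cells stably expressing mCherry and kept in suspension, where adherent cells can enter one another and form cell-in-cell structures. The double-positive population was sorted for both colours, the single-positive population for a single colour, and parental cells served as the reference. Whether cells of each colour went into the single-positive library, and whether the expansion named in the protocol preceded the sort was not stated. Each population had 1 library, so no test between populations was possible, and all values below are descriptions. The libraries held 62517276 UMIs (double-positive), 51637677 (single-positive) and 65107147 (parental). Of the cell barcodes, 6 were shared by the double-positive and parental libraries, 1 by the single-positive and parental libraries, and 1 by the double-positive and single-positive libraries. In p21-high cells 9 epithelial markers summed to between 8992 and 9796 counts per 1000000 UMIs (CPM) per library, against 7962 to 8702 CPM in other cells. Fibroblast, endothelial and erythroid markers each summed to between 0 and 5.69 CPM in p21-high cells, against 0.247 to 3.02 CPM in other cells. Immune markers summed to 35.4 to 59.2 CPM in p21-high and 32.9 to 43.9 CPM in other cells, and neural or endocrine markers to 67.3 to 89.1 CPM and 49.2 to 59.1 CPM. The defining markers PTPRC, CD3E, COL1A2, CDH5 and INS had no UMI in p21-high cells.

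p21 binds cyclin-dependent kinases and the replication clamp PCNA, and so holds cells back from DNA replication. Its gene is the best known target of the tumour suppressor p53, and it is also transcribed without p53, after growth factor, stress and differentiation signals. BxPC-3 is known to lack SMAD4 and to have lost CDKN2A. In these libraries CDKN2A and CDKN2B, the genes of the INK4 inhibitors p16 and p15, had 0 UMIs in every cell.

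The promoter sequences of CDKN1A and of a pair of chemokine genes are shown here. The summed counts of both chemokine genes were far higher in p21-high cells, in part through single cells, as described below. Each run is the 250 bases before the RefSeq start on GRCh38.p14, read 5′ to 3′ on the gene's strand. Capitals mark GC boxes (GGGCGG), the AP-1 motif TGANTCA and the NF-kB motif GGAATTTCC, searched on both strands.
CDKN1A, chr6:36678464-36678713, plus strand: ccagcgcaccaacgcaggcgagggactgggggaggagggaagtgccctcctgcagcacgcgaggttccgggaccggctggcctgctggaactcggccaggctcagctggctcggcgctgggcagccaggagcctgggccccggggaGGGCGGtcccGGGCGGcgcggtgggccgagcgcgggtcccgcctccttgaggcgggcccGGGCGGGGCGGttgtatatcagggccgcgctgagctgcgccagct
CXCL8, chr4:73740319-73740568, plus strand: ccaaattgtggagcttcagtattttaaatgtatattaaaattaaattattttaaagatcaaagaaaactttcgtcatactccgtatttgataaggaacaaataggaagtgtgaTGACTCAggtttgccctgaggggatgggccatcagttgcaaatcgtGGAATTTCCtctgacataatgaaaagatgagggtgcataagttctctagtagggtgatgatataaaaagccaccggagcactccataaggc
CXCL3, chr4:74038690-74038939, minus strand: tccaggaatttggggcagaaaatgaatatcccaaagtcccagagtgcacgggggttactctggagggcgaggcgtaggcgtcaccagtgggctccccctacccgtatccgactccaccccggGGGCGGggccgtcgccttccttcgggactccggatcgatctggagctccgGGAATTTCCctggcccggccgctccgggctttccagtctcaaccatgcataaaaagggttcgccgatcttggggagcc
The CDKN1A window held 4 GC boxes, the last pair overlapping by a base, and a GC box occurred in 42.6% of 35116 RefSeq windows of this length. The NF-kB letters were present once in each of the CXCL8 and CXCL3 windows and in 0.413% of all windows. The AP-1 letters were present once in the CXCL8 window and in 6.57% of all windows. The NF-kB motif was searched as a fixed spelling without variable bases, and the chemokine genes were picked for their high values in these same cells. The rarity of that spelling among all windows is therefore no test of a link between NF-kB and these genes. These matches describe letters and are not evidence of binding.

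The score had no gap at the threshold. The lowest p21-high cell scored 13.22 and the highest other cell 13.20 CDKN1A UMIs per 10000. There were 53 p21-high cells below 14, and 87 other cells above 12. The median of all cells was 4.27 and the highest 47.05. The p21-high cells are therefore the upper end of a continuous distribution. By the rule itself their median score was high, at 16.1 in double-positive, 16.9 in single-positive and 16.1 in parental p21-high cells, against 4.03, 3.92 and 4.20 in the other cells of these libraries. A CDKN1A UMI was absent from 38 double-positive, 14 single-positive and 59 parental other cells. Barcodes with 100 UMIs or fewer, which hold free RNA, had 5.28, 4.34 and 5.56 CDKN1A UMIs per 10000 in the double-positive, single-positive and parental libraries, close to the level of all cells.

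**Figure D1:**
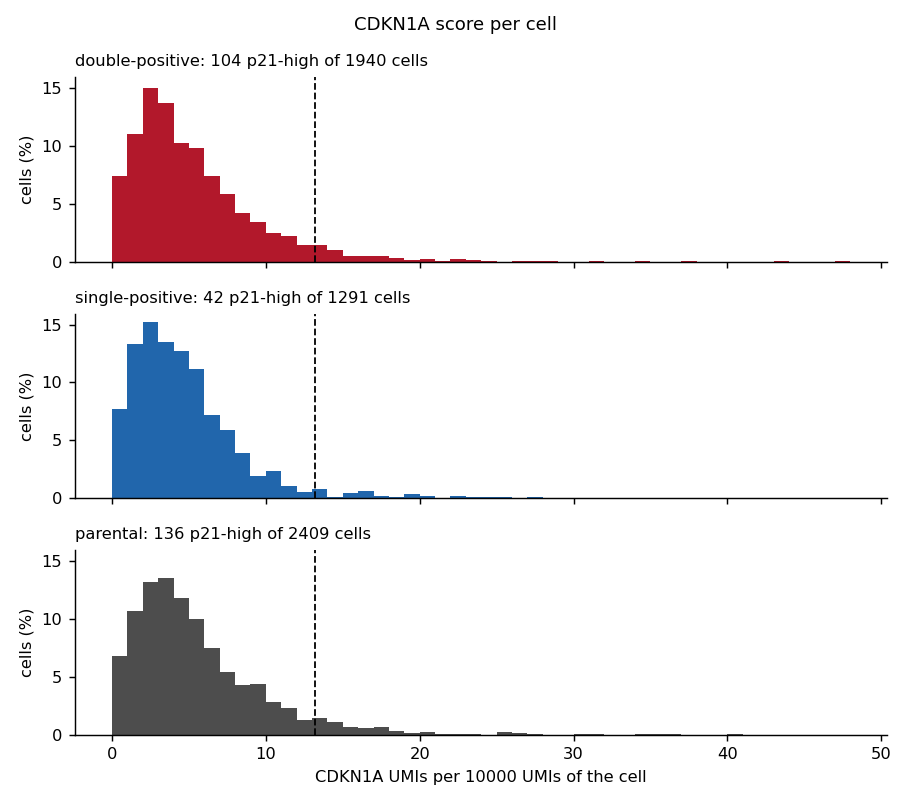
Share of cells (%, vertical) by CDKN1A UMIs per 10000 UMIs of the cell (horizontal, bins of 1) in the double-positive, single-positive and parental libraries. The dashed line is the lowest score of a p21-high cell, 13.22, and each distribution runs through it without a break.

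The UMIs of each cell were also split at random into 2 equal portions. Cells chosen on the first portion had a median score in the second portion of 15.6 in double-positive, 17.1 in single-positive and 14.6 in parental cells. The cells not chosen had 3.99, 3.70 and 4.21 in the second portion.

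p21-high cells made up 5.36% of double-positive cells (104 of 1940; exact Clopper-Pearson interval 4.40 to 6.46%), 3.25% of single-positive cells (42 of 1291; 2.35 to 4.37%) and 5.65% of parental cells (136 of 2409; 4.76 to 6.64%). These 95% intervals, like all others here, cover counting error only. The double-positive and parental intervals overlapped, and the upper bound of the single-positive interval, 4.37%, lay just under the lower bound of the double-positive one, 4.40%. Depth differed between libraries, so every cell was also thinned to 6500 UMIs. At 10 or more CDKN1A UMIs the thinned shares were 5.10% of double-positive (4.17 to 6.18%), 3.33% of single-positive (2.42 to 4.46%) and 5.11% of parental cells (4.26 to 6.06%). Thinned, the single-positive interval overlapped both of the others.

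Depth and RNA quality differed little between p21-high and other cells, except for the mitochondrial share. Median UMIs were 30187 in double-positive, 40752 in single-positive and 25399 in parental p21-high cells, against 29905, 37988 and 23126 in other cells. The median mitochondrial share was 1.79%, 0.70% and 0.69% in p21-high cells of the double-positive, single-positive and parental libraries, against 2.08%, 1.31% and 0.97% in other cells. Droplets under 0.5% mitochondrial UMIs were 15.4% of double-positive, 38.1% of single-positive and 38.2% of parental p21-high cells, against 5.66%, 21.2% and 31.5% of other cells. Without those droplets the p21-high share was 4.84% of double-positive, 2.57% of single-positive and 5.12% of parental cells. The part of these droplets in the results was not tested beyond the values given beside them.

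Few p21-high cells were in S phase. Called on thinned cells from the S phase and the G2 and mitosis lists described below, S phase held 9.62% of double-positive, 2.38% of single-positive and 2.21% of parental p21-high cells, against 17.0%, 18.1% and 14.7% of other cells. G1 held 56.7% of double-positive, 57.1% of single-positive and 50.7% of parental p21-high cells, against 44.9%, 38.5% and 47.6% of other cells. For G2/M the shares were 33.7%, 40.5% and 47.1% of p21-high cells and 38.1%, 43.4% and 37.7% of other cells in the double-positive, single-positive and parental libraries. The lower S share was common to the libraries. The G2/M share was lower in p21-high than in other cells of the double-positive and single-positive libraries and higher in the parental one.

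For genes, UMIs were summed over the p21-high cells and over the other cells of a library, and the log2 ratio of their CPM was taken within that library. A gene was called higher or lower when at least 1.5-fold apart in the same direction in every library. Of 7806 genes that averaged 10 CPM or more over the 6 sums, 302 (3.87%) were higher and 37 (0.474%) were lower, and the median log2 ratio of all genes was within 0.01 of 0 in each library. At any size, 29.9% of genes were higher and 29.8% lower in every library. At 2-fold or more, 113 were higher and 5 lower. The cells were chosen on CDKN1A in the same libraries, so these counts describe what accompanied it. Leaving out, for each gene, the p21-high cell and the other cell with most of its UMIs left 203 of the 302 higher genes and all 37 of the lower genes past 1.5-fold. This removes a larger part of the smaller group, the p21-high cells, and so is no check on the lower genes. The floor of 10 CPM includes the p21-high sums, so a gene that passed only through them had to be higher. Of the 302 higher genes 64 averaged below 10 CPM in other cells, as did 6 of the 10 highest, among them IL36G. With the floor on other cells alone, 238 of 7675 genes were higher and 42 lower. The gene lists below use genes that averaged 5 CPM or more over the 6 sums. At that floor 385 of all 9571 genes (4.02%) were higher by 1.5-fold and 48 (0.502%) lower. At any size, 29.5% were higher and 27.5% lower in every library. The list counts below are to be read beside these shares.

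Genes of DNA replication were lower as a group, and their levels declined gradually along the score. Of 43 S phase genes 30 were lower in every library and 1 higher, and 4 passed 1.5-fold lower, against 0.502% of all genes at 5 CPM. The list's median log2 ratio was -0.29 in double-positive, -0.34 in single-positive and -0.33 in parental cells. CDCA7, a MYC-responsive chromatin factor, had 3.79 CPM in double-positive, 3.87 in single-positive and 4.19 in parental p21-high cells, against 19.95, 24.99 and 20.18 CPM in other cells. MCM6, a subunit of the replicative helicase, had 7.27, 8.30 and 7.08 CPM in p21-high cells of the double-positive, single-positive and parental libraries, against 17.6, 19.8 and 14.6 CPM in other cells. UHRF1, which guides maintenance of DNA methylation at forks, had 19.0, 13.3 and 16.3 CPM in p21-high cells of these libraries, against 38.8, 43.0 and 34.1 CPM in other cells. GINS2, another part of the replicative helicase, was the fourth gene past 1.5-fold, with log2 ratios of -0.76, -1.09 and -0.94.

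The mismatch repair gene MSH6, the nuclear lamina gene LMNB1 and the nucleotide synthesis gene IMPDH1 were also among the 10 lowest genes. LMNB1 had 22.4 CPM in double-positive, 27.7 in single-positive and 23.1 in parental p21-high cells, against 46.1, 53.5 and 39.8 CPM in other cells. PCNA, the clamp that p21 binds, reached 130, 140 and 130 CPM in p21-high cells of the double-positive, single-positive and parental libraries. In cells without a CDKN1A UMI it reached 352, 297 and 311 CPM, and it was lower in each step of the score between them. When other cells were reweighted to the phase calls of the p21-high cells, the S phase list median was -0.05. The phase calls use the same genes.

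Among cyclins and kinases of G1 and S, 12 of 15 counted were lower in every library, against 27.5% of all genes at 5 CPM. None was higher in every library, and none passed 1.5-fold. CDK6 had 124 CPM in double-positive, 115 in single-positive and 115 in parental p21-high cells, against 170, 163 and 147 CPM in other cells. CCND1, the gene of cyclin D1, had log2 ratios of -0.46, -0.26 and -0.15 in the double-positive, single-positive and parental libraries. SKP2, which marks p21 and p27 for degradation, had log2 ratios of -0.57, -0.59 and -1.07. Of the other inhibitors, CDKN1B (p27) had 33.5, 38.7 and 41.4 CPM in p21-high cells against 27.0, 27.7 and 24.9 CPM in other cells of the double-positive, single-positive and parental libraries. CDKN2D (p19) had log2 ratios of 0.76, 0.94 and 0.86 and was the only inhibitor of the 4 counted that passed 1.5-fold in every library. Of these 4, 1 reached 5 CPM only through the p21-high sums. CDKN1C (p57) stayed at 1.26 to 11.1 CPM in p21-high cells, with 75% of its single-positive UMIs in 1 cell.

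Genes of G2 and mitosis showed no common direction between p21-high and all other cells. Their list median was -0.32 in double-positive, 0.10 in single-positive and 0.13 in parental cells, and none of 52 genes passed 1.5-fold in every library in either direction. The median over libraries turned negative under 12 of 20 alternatives. CDC20, the activator of the anaphase-promoting complex, was below other cells in every library, with 98.6, 163 and 146 CPM in double-positive, single-positive and parental p21-high cells against 187, 220 and 191 CPM in other cells. HMGB2 and NUSAP1 lay slightly above other cells in every library, with log2 ratios from 0.14 to 0.59. Of 17 replication-dependent histone genes 11 were higher in every library and 3 passed 1.5-fold, against 29.5% and 4.02% of all genes at 5 CPM. HIST1H2AC had 243, 242 and 284 CPM in p21-high cells against 113, 107 and 122 CPM in other cells of the double-positive, single-positive and parental libraries.

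**Figure D2:**
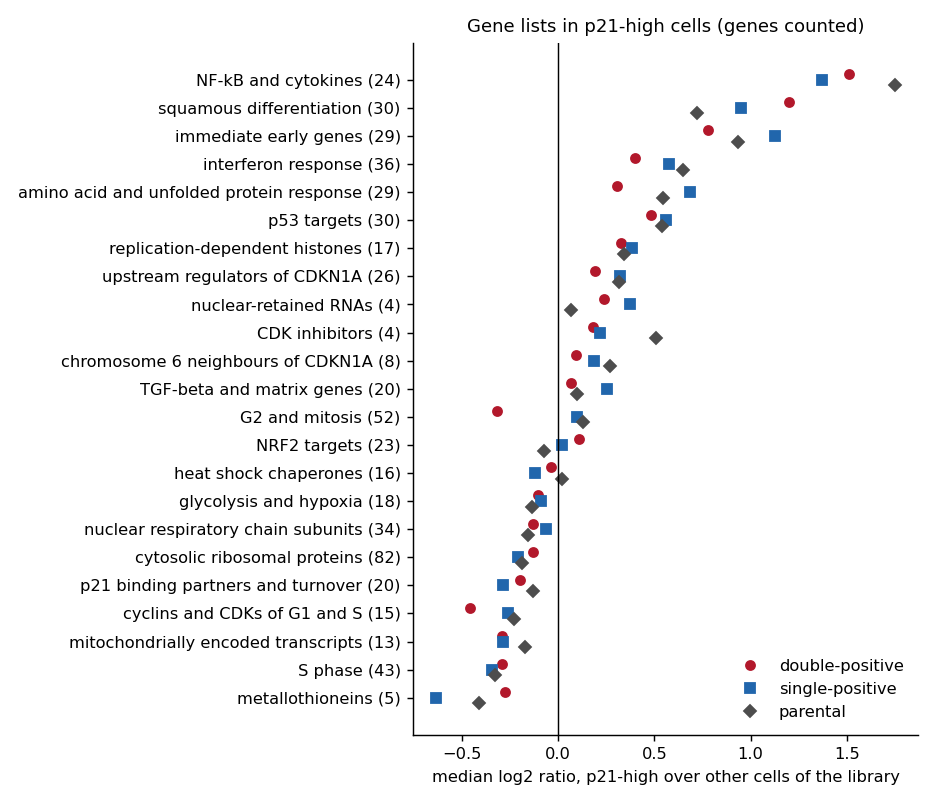
Median log2 ratio of p21-high over other cells (horizontal) for each gene list (vertical, with the number of genes counted), with 1 point for each of the double-positive, single-positive and parental libraries. The NF-kB list lies furthest to the right, at 1.51, 1.37 and 1.75, and the S phase list lies left of 0 in every library.

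Targets of p53 were higher in part. Of 30 counted, 23 were higher in every library and none lower, and 11 passed 1.5-fold, against 4.02% of all genes at 5 CPM. Of these 30, 1 reached 5 CPM only through the p21-high sums, and 10 of the other 29 passed. The list median was 0.48 in double-positive, 0.56 in single-positive and 0.54 in parental cells. MDM2, the ubiquitin ligase that restrains p53, had log2 ratios of 1.41, 1.24 and 1.30. BBC3, the gene of the apoptosis inducer PUMA, had 109 CPM in double-positive, 168 in single-positive and 178 in parental p21-high cells, against 30.3, 25.6 and 37.3 CPM in other cells. PMAIP1, the gene of NOXA, had 265, 346 and 284 CPM in p21-high cells of these libraries, against 95.8, 80.3 and 90.0 CPM in other cells. GDF15, a secreted stress cytokine, had 486, 604 and 678 CPM in p21-high cells, against 186, 147 and 208 CPM in other cells. For BBC3, PMAIP1 and GDF15 the lowest p21-high sum exceeded the highest sum of other cells.

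The remaining 19 of 30 did not pass 1.5-fold in every library. Among these, and chosen after their values were seen, BAX had log2 ratios of -0.08, 0.08 and -0.06 in the double-positive, single-positive and parental libraries, FDXR -0.08, 0.14 and 0.43, and CCNG1 -0.10, 0.26 and 0.06. Among the targets that stood highest, SESN2, BBC3 and PMAIP1 are known to be induced also by the integrated stress response, and BTG2 by growth factor signals. Which signals raised any of these targets here was not tested. Of 26 regulators of CDKN1A counted, 7 passed 1.5-fold higher and none lower, against 4.02% and 0.502% of all genes at 5 CPM. With the floor on other cells alone, 6 of 25 passed higher. The 7 included the zinc-finger factors EGR1 and KLF6. TP63 had log2 ratios of -0.32, -0.43 and -0.28, and MYC 0.03, -0.16 and 0.08. Neighbours of CDKN1A on chromosome 6 moved little: SRSF3, next to it, had log2 ratios of 0.32, 0.17 and 0.41, and none of 8 neighbours counted passed 1.5-fold.

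The NF-kB and cytokine genes stood furthest above other cells. Of 24 counted, 22 were higher in every library, and 19 passed 1.5-fold, with none lower. Of these 24, 3 reached 5 CPM only through the p21-high sums, and 18 of the other 21 passed. The list median log2 ratio was 1.51 in double-positive, 1.37 in single-positive and 1.75 in parental cells. CXCL8, the neutrophil-attracting chemokine whose promoter is shown above, had 371 CPM in double-positive, 401 in single-positive and 473 in parental p21-high cells, against 35.7, 40.5 and 44.3 CPM in other cells. CXCL3, a related chemokine, had 144, 235 and 266 CPM in p21-high cells of these libraries, against 28.5, 31.6 and 28.8 CPM in other cells. CXCL3 has near-identical paralogues in CXCL1 and CXCL2, so its counts can hold reads of those. CCL20, which attracts CCR6-bearing cells, had 167, 178 and 83.9 CPM in p21-high cells, against 16.9, 18.2 and 22.0 CPM in other cells. BIRC3, an inhibitor of apoptosis that NF-kB induces, had log2 ratios of 1.63, 2.60 and 2.47, and the NF-kB inhibitor gene NFKBIA had 1.24, 0.92 and 1.37.

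Single cells carried much of some of these sums. One single-positive p21-high cell held 74.9% of the CXCL8 UMIs of its group. Without the largest cell of each group the CXCL8 log2 ratio was 3.12 in double-positive, 1.46 in single-positive and 3.21 in parental cells. In double-positive p21-high cells 56.7% of CXCL3 UMIs came from 1 cell, and without the largest cells its log2 ratio was 1.30, 2.15 and 2.96. The NF-kB list median was 1.26 without each gene's largest cells. For IL36G, an epithelial cytokine of the IL-1 family that was counted only through its p21-high sums, 1 cell held 79.5% of single-positive p21-high UMIs. IL36G had 43.0, 43.2 and 31.2 CPM in p21-high cells of the double-positive, single-positive and parental libraries, against 2.04, 1.79 and 1.98 CPM in other cells. In cells thinned to 6500 UMIs it was detected in 9.22% of p21-high cells and 0.97% of other cells. CXCL8 was detected in 28.7% of p21-high cells and 13.7% of other cells. By library these shares were 24.04% and 11.55% in double-positive, 19.05% and 15.77% in single-positive, and 35.29% and 14.25% in parental cells. For CXCL3 they were 9.6% and 9.0%, 28.57% and 10.65%, and 20.59% and 8.71% in these libraries. In double-positive cells CXCL3 was thus detected in hardly more p21-high than other cells.

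**Figure D3:**
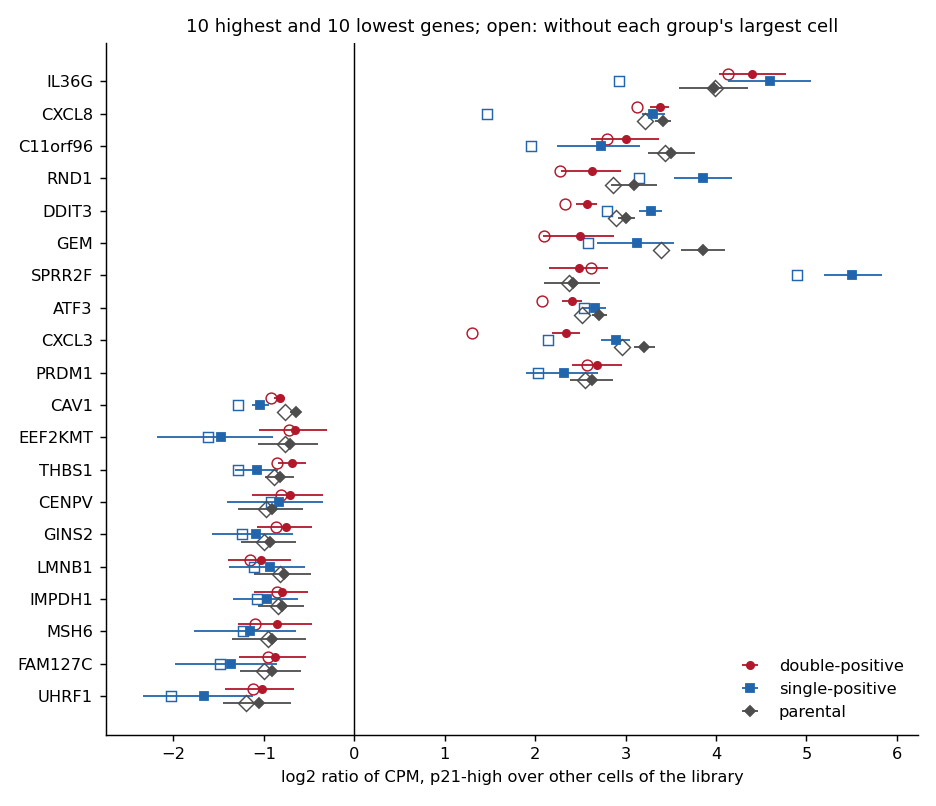
Log2 ratio of CPM in p21-high over other cells (horizontal) for the 10 highest and 10 lowest genes (vertical) in the double-positive, single-positive and parental libraries, with exact 95% counting intervals. Open symbols leave out the largest cell of each group: for CXCL8 the single-positive value is 1.46 in place of 3.31. All the lowest genes stay left of 0, but this step takes a larger part from the smaller p21-high group. It is therefore no check on the lowest genes. Of the 10 highest, 6 averaged below 10 CPM in other cells.

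Stress genes were described by 4 lists. Among amino acid and unfolded protein response genes, 12 of 29 passed 1.5-fold higher and none lower, and list medians were 0.30 in double-positive, 0.68 in single-positive and 0.54 in parental cells. DDIT3, the gene of the stress transcription factor CHOP, had 248, 376 and 377 CPM in p21-high cells of these libraries, against 41.7, 38.8 and 46.9 CPM in other cells. It was detected in 40.4% of p21-high and 15.9% of other cells after thinning. TRIB3, a target of ATF4 and CHOP, had 128, 189 and 199 CPM in p21-high cells, against 43.5, 39.7 and 53.1 CPM in other cells. ASNS, asparagine synthetase, had log2 ratios of 1.10, 1.88 and 1.29, and HERPUD1, of endoplasmic reticulum-associated degradation, 1.13, 1.39 and 1.20. The chaperone genes HSPA5 and HSP90B1 had log2 ratios of 0.16, 0.19 and 0.26, and of -0.18, -0.42 and -0.22. Without droplets under 0.5% mitochondrial UMIs the list median was 0.29.

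Heat shock chaperones had list medians of -0.04, -0.12 and 0.02 in the double-positive, single-positive and parental libraries. None of 16 passed 1.5-fold, and 7 were higher and 6 lower in every library. At 5 CPM, 29.5% of all genes were higher and 27.5% lower in every library. HSPA1B and HSPA1A, stress-inducible and near-identical paralogues, had log2 ratios of 0.51, 0.52 and 0.67, and of 0.40, 0.26 and 0.50. HSPA8, the constitutive cytosolic chaperone, had 595, 615 and 644 CPM in p21-high cells of these libraries, against 853, 946 and 886 CPM in other cells. Targets of NRF2, the factor of the oxidative stress response, had medians of 0.11, 0.02 and -0.08. Of 23 counted, 1 passed 1.5-fold higher, near the 4.02% of all genes at 5 CPM. Metallothioneins were below other cells in every library for 4 of 5 genes. MT2A, the most abundant of the named ones, had 5290, 6731 and 5945 CPM in double-positive, single-positive and parental p21-high cells, against 7438, 8915 and 7917 CPM in other cells.

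Immediate early genes, which follow growth factor and stress signals within minutes, were higher in 25 of 29 cases in every library, and 16 passed 1.5-fold. With the floor on other cells alone, 14 of 27 did. Their list median was 0.78 in double-positive, 1.13 in single-positive and 0.93 in parental cells. ATF3, a stress-induced repressor, had 272, 355 and 395 CPM in p21-high cells of these libraries, against 51.2, 56.2 and 60.3 CPM in other cells. DUSP1, a phosphatase of MAP kinases, had 497, 681 and 497 CPM in p21-high cells, against 159, 168 and 174 CPM in other cells. EGR1, an early zinc-finger factor, had 372, 561 and 461 CPM in p21-high cells, against 152, 183 and 128 CPM in other cells. In G1 cells alone the list median over the libraries was 0.49. Interferon response genes were higher in every library for 25 of 36, with 8 past 1.5-fold, among them ISG20 and IRF1. The shares of all genes at 5 CPM were 29.5% and 4.02%.

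Genes of squamous differentiation were higher as well, with 15 of 30 past 1.5-fold, none lower, and list medians of 1.20 in double-positive, 0.95 in single-positive and 0.72 in parental cells. Of these genes 5 reached 5 CPM only through the p21-high sums, among them GRHL3 and ZNF750. With the floor on other cells alone, 11 of 25 passed 1.5-fold, and the medians were 1.01, 0.55 and 0.65. GRHL3 and ZNF750, regulators of epidermal differentiation, had log2 ratios of 2.49, 2.98 and 2.40, and of 2.36, 2.20 and 2.22. SPRR2A, a precursor of the cornified envelope, had 854 CPM in double-positive, 878 in single-positive and 268 in parental p21-high cells, against 81.8, 56.1 and 87.6 CPM in other cells. SPRR2D and SPRR2F resemble it closely in sequence, so counts of these genes can be split among them. In the single-positive library 58.7% of the SPRR2A UMIs of p21-high cells lay in 1 cell. Without each gene's largest cells the list median was 0.50. KRT5, a basal keratin gene, had log2 ratios of 0.01, -0.39 and -0.22.

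Of 20 matrix and TGF-beta genes counted, 8 were higher and 7 lower in every library, and by 1.5-fold 4 were higher and 1 lower. The list median was 0.07 in double-positive, 0.25 in single-positive and 0.10 in parental cells. Among these genes, PLAU and PLAUR, urokinase and its receptor, were higher. PLAU had 857, 641 and 700 CPM in p21-high cells of the double-positive, single-positive and parental libraries, against 321, 248 and 261 CPM in other cells. CAV1, the coat protein of caveolae, and THBS1, a matrix glycoprotein, were among the 10 lowest genes. CAV1 had 711, 530 and 637 CPM in p21-high cells, against 1257, 1088 and 998 CPM in other cells. Of 82 cytosolic ribosomal protein genes 74 were lower in every library, against 27.5% of all genes at 5 CPM. The amounts were small, with list medians of -0.13, -0.21 and -0.19.

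The lists differed in how they moved along the score. Other cells with a CDKN1A UMI were ordered into 4 groups of equal size, with edges at scores of 2.49, 4.16 and 6.46. S phase genes summed to 2743 CPM in double-positive, 2975 in single-positive and 2375 in parental cells without a CDKN1A UMI, to 1461, 1644 and 1362 CPM in the highest of the 4 groups, and to 1468, 1578 and 1305 CPM in p21-high cells. Most of that decline lay below the threshold. Genes of G2 and mitosis were higher in the highest than in the lowest of the 4 groups in every library. They summed to 3772, 4184 and 3783 CPM in the lowest group and to 4785, 4402 and 4492 CPM in the highest. In p21-high cells they summed to 3697, 4640 and 4518 CPM. NF-kB and cytokine genes summed to 4259, 3945 and 4899 CPM in p21-high cells of these libraries, against 1815, 2002 and 2139 CPM in the highest group of other cells. DDIT3 had 67.3, 63.2 and 86.0 CPM in that group, far below its level in p21-high cells. Cells without a CDKN1A UMI were few, 14 of them in the single-positive library, and their values rest on that number. The depth of the groups along the score is not given here.

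**Figure D4:**
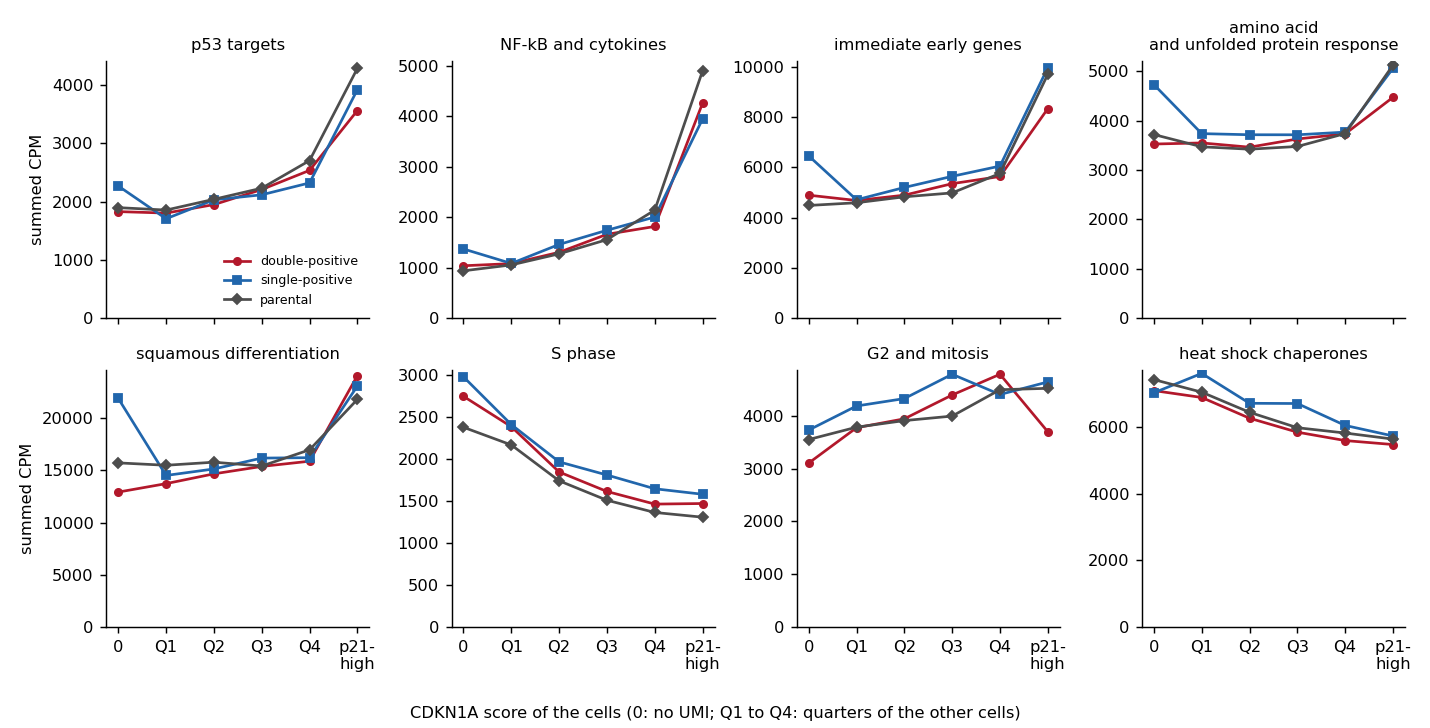
Summed CPM of 8 gene lists (vertical, from 0) in cells ordered by CDKN1A score (horizontal: no CDKN1A UMI, 4 equal groups of the other cells from low to high, p21-high cells), with 1 line for each of the double-positive, single-positive and parental libraries. S phase lines decline up to the threshold, heat shock lines end below the level of the lowest group, and NF-kB lines step up in p21-high cells, to 4259, 3945 and 4899 CPM.

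The p21-high cells were not alike. For each list and library a limit was set at the 95th percentile of other cells, on cells thinned to 6500 UMIs, and p21-high cells above it were counted. For p53 targets 35.1% of p21-high cells lay above the limit, for immediate early genes 27.0%, for NF-kB and cytokines 24.1%, for squamous differentiation 23.8%, for the amino acid and unfolded protein response 19.9% and for the interferon response 14.2%. For S phase 2 of 282 cells did, or 0.709% (exact interval 0.086 to 2.54%). The share for p53 targets was 26.9% of double-positive, 47.6% of single-positive and 37.5% of parental p21-high cells. Of all p21-high cells 102 (36.2%) were above the limit for none of the 6 stress, cytokine and differentiation lists, against 79.2% of other cells. The typical p21-high cell was nearer to other cells than the sums are: the median for NF-kB and cytokines was 12 UMIs of 6500 in p21-high cells and 8 in other cells, and for immediate early genes 37 and 31.

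**Figure D5:**
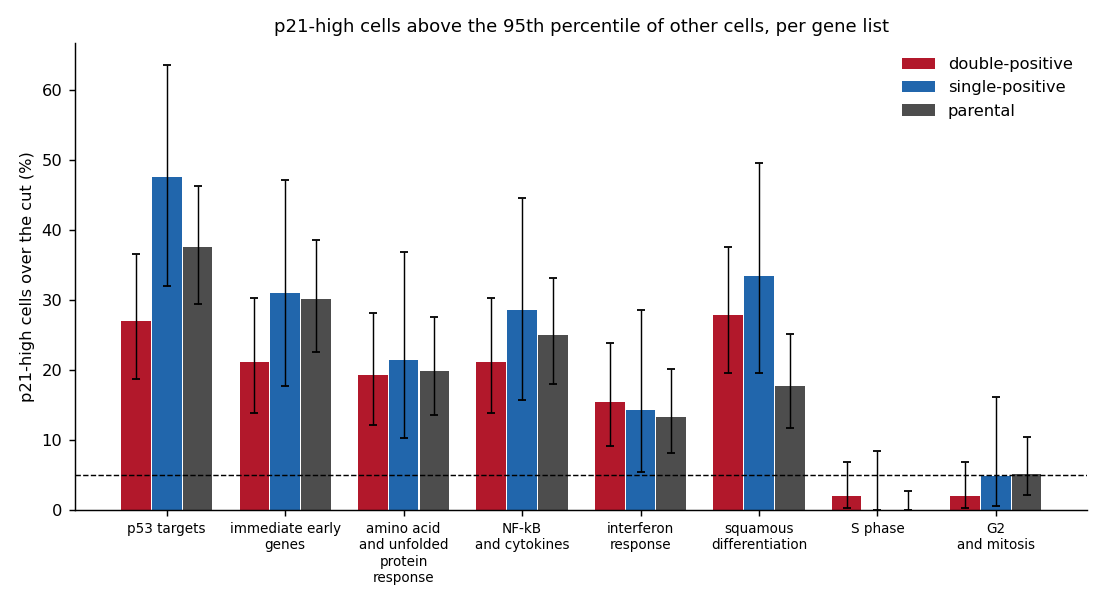
Share of p21-high cells (%, vertical, from 0) above the 95th percentile of the other cells of their library, for 8 gene lists, in the double-positive, single-positive and parental libraries. Bars carry exact 95% binomial intervals and the dashed line is at 5%: p53 targets reach 26.9%, 47.6% and 37.5%, and S phase stays between 0 and 1.92%.

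The programmes overlapped within cells. Of 68 p21-high cells above the NF-kB limit, 48 (70.6%) were also above the immediate early limit, which is 63.2% of the 76 cells above that limit. Of the 56 cells above the amino acid and unfolded protein limit, 39 (69.6%) were above the immediate early limit. For p53 targets, whose limit 35.1% of all p21-high cells passed, 54 of the 76 cells above the immediate early limit passed it (71.1%), 40 of the 56 above the amino acid and unfolded protein limit (71.4%) and 47 of the 68 above the NF-kB limit (69.1%). Of the 67 cells above the squamous limit, 16 (23.9%) were above the NF-kB limit and 14 (20.9%) above the amino acid and unfolded protein limit, shares near the 24.1% and 19.9% of all p21-high cells. The 6 lists share no gene, and all cells entered with the same number of UMIs.

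Within G1 and G2/M cells the main lists kept their direction. In cells called G1 the NF-kB median log2 ratio was 0.82 in double-positive, 1.21 in single-positive and 1.67 in parental cells, and in cells called G2/M it was 1.88, 1.47 and 1.83. The p53 list had 0.28, 0.40 and 0.49 in G1 and 0.77, 0.69 and 0.65 in G2/M. The squamous list had 1.33, 0.73 and 0.77 in G1 and 0.76, 0.63 and 0.45 in G2/M. The S phase list was lower in G1, at -0.59, -0.59 and -0.66, and not in G2/M, at 0.04, 0.21 and 0.06.

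Droplets with little mitochondrial RNA had higher NF-kB sums. In p21-high droplets under 0.5% mitochondrial UMIs the NF-kB and cytokine genes summed to 6372 CPM in double-positive (16 droplets), 4605 in single-positive (16) and 6216 in parental cells (52), against 2046, 1549 and 1630 CPM in other droplets under that share. In the remaining p21-high cells they summed to 3837, 3489 and 3759 CPM, against 1424, 1516 and 1479 CPM in other cells of at least 0.5%. The difference between p21-high and other cells was therefore present in both kinds of droplet.

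Some genes went along with CDKN1A to different degrees in the libraries. The ratio of p21-high to other cells was furthest above the parental one for SPRR2A, with log2 ratios of 3.38 in double-positive, 3.97 in single-positive and 1.62 in parental cells. Without the largest cells these were 3.18, 2.95 and 1.40. PI3, the elastase inhibitor elafin, had 375, 279 and 141 CPM in double-positive, single-positive and parental p21-high cells, against 67.5, 71.6 and 77.4 CPM in other cells. Its log2 ratios were 2.48, 1.97 and 0.86, and 1.82, 1.06 and 0.79 without the largest cells. SAA1, an acute phase protein, had log2 ratios of 1.42, 2.56 and 0.25, and 1.33, 1.27 and 0.21 without the largest cells. In the other direction, IFIT2, an interferon-induced gene, had 61.9, 112 and 196 CPM in p21-high cells, against 52.6, 58.9 and 46.9 CPM in other cells. In each library 1 cell held between 40.1% and 48.5% of the IFIT2 UMIs of p21-high cells, and without the largest cells its log2 ratios were -0.52, 1.01 and 1.43. SNAPC1, a subunit of the small nuclear RNA activating complex, had log2 ratios of 0.76, 1.36 and 1.99, and 0.31, 0.62 and 1.70 without the largest cells. CSF2, the gene of the cytokine GM-CSF, had 0.58, 1.72 and 1.75, and 0.42, 0.52 and 1.57 without the largest cells. With 1 library per population these differences have no replicate check.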

How the data were processed

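Per the labels, libraries were prepared with the 10x Chromium Next GEM 5′ chemistry, 1 for each of 3 populations. The deposited matrices hold UMI counts for every barcode, not only for cells. Cell Ranger 4.0.0, Seurat 4.0.6 and the build GRCh38 are named in the submitters' processing notes. GENCODE 29 matched 33132 of 33694 features by identifier. The cells kept held 97.7 to 98.0% of each library's UMIs. Doublets were neither called nor removed, because sorting on both colours can itself select them.

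UMIs were summed per library over p21-high and over other cells and scaled to CPM. Log2 ratios added 0.5 counts to each sum, with exact conditional binomial intervals at 95%. Cells of a library are not independent samples, and no test was made. Lists (29) used genes averaging at least 5 CPM. The genes named were the 10 highest and 10 lowest by the library ratio nearest 0 with at least 30 CPM, up to 5 of each list by absolute median ratio, all listed inhibitors, cyclins and neighbours, and the 5 highest and lowest differences between libraries. MDM2, TP63, MYC, BAX, FDXR, CCNG1, NFKBIA, HERPUD1, HSPA5, HSP90B1, KRT5 and PCNA were named after their values were seen. Phases were scored with scanpy 1.11.5 on cells thinned to 6500 UMIs.

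The p21-high cells, the lists and the rules were chosen with earlier results of these data known. The ratio step was checked on simulated sums. These had no variation between cells, so the check does not cover sums carried by single cells. Alternatives changed the threshold, depth, cells kept, weighting, scaling and floor, and left out each library. Another 4 alternatives were chosen after seeing the data: phase and depth together, G1 cells alone, without each gene's largest cell, and the floor on other cells alone. Python 3.11.15, numpy 2.4.6, scipy 1.17.1 and pandas 2.3.3 were used.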

Additional observations from a re-analysis of the deposited data

Results flagged for a closer look

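For 4 genes and 1 list the p21-high cells lay above the other cells in at least 1 library and below them in another; for the genes, the counting intervals lay on opposite sides of 0. The difference between libraries was not tested, since each population had 1 library. DHRS2, a short-chain dehydrogenase, had 796 CPM in double-positive, 101 in single-positive and 793 in parental p21-high cells, against 449, 203 and 251 CPM in other cells, and its log2 ratios of 0.83, -1.01 and 1.66 spanned 2.67. S100A9, a calcium-binding protein of inflamed epithelium, had log2 ratios of 1.38, -0.24 and 0.26, a span of 1.61, and 0.96, -0.29 and 0.20 without the largest cells. AKR1C1, an aldo-keto reductase, had 0.41, 1.01 and -0.16, a span of 1.17. DTX2, a ubiquitin ligase of the Notch pathway, had 0.29, -0.45 and 0.43, a span of 0.88. The G2 and mitosis list median, at -0.32, 0.10 and 0.13, spanned 0.45.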

How the results depend on the processing

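No paired analysis was possible because each population had 1 library. Over 20 alternatives, none of 574 values of 29 named genes changed sign, and the leading 20 genes stayed past 1.5-fold in 388 of 394. The leading 20 were picked as the extremes of these same cells, and the alternatives drew on the same libraries. Their stability is therefore not an independent check. Shares in double-positive, single-positive and parental cells were 10.6%, 6.43% and 11.4% at the top 10%, 2.11%, 1.63% and 2.12% at the top 2%, and 5.04% in single-positive cells at the top 5% of each library; a changed threshold changes the share by its construction. Higher genes numbered 174 at 30 CPM and 196 without each gene's largest cell, fewer than the 203 of the 302 still past 1.5-fold, since the floor of 10 CPM was applied again to the reduced sums. Lower genes numbered 20 at the top 10%, 56 at the top 2%, 10 at 30 CPM, 61 without each gene's largest cell, 75 without the parental and 74 without the double-positive library. For list medians the cause of a change was not tested.

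p53 targets had 0.42 at the top 10%, 0.62 at the top 2%, 0.49 thinned, 0.48 without cells of 50000 or more UMIs, 0.42 by per-cell means, 0.40 in G1 and 0.45 without the largest cells. NF-kB and cytokines had 1.13, 1.94, 1.23 without droplets under 0.5% mitochondrial UMIs, 1.29 by per-cell means and 1.26 without the largest cells. Immediate early genes had 1.33 at the top 2% and 0.49 in G1; the amino acid list 0.29 without low-mitochondrial droplets; the interferon list 0.37 at the top 10%, per library and without those droplets, 0.30 in G1 and 0.35 without the largest cells; the squamous list 1.30 on split UMIs, 0.50 without the largest cells and 0.65 with the floor on other cells alone, which counts fewer genes.

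S phase had -0.38 at the top 10%, the top 2% and without cells of 50000 or more UMIs, -0.36 thinned and on split UMIs, -0.41 without low-mitochondrial droplets, -0.40 by per-cell means and without the largest cells, -0.51 in G1, -0.055 reweighted to phase and -0.13 reweighted to phase and depth. G2 and mitosis turned sign under 12 alternatives: -0.055 at the top 2%, -0.0053 per library, -0.0398 thinned, -0.0409 on split UMIs, -0.0397 without low-mitochondrial droplets, -0.0687 without cells of 50000 or more UMIs, -0.0197 reweighted to phase, -0.0469 by per-cell means, -0.11 without the parental and -0.10 without the single-positive library, -0.42 in G1 and -0.0945 without the largest cells. With 42 single-positive p21-high cells, single cells carry some sums there.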
